A study of Homo sapiens with 480 samples.

Results

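Oxidative phosphorylation was described here through 112 of the 20302 features of the table, measured in single T cells of an HIV latency model. They were taken by gene symbol: every NDUFA, NDUFB, NDUFC, NDUFS, NDUFV, UQCR, COX4, COX5, COX6, COX7, COX8 and ATP5 gene, SDHA, SDHB, SDHC, SDHD and CYC1, and the protein coding MT- genes. Of these members, 13 are encoded on mitochondrial DNA and 99 in the nucleus. Among the 99, 85 encode subunits of complexes I to V or their isoforms, and the other 14 were 8 complex I assembly factors (NDUFAF genes), the ATP synthase inhibitor ATP5IF1, the supercomplex factor COX7A2L, 2 read-through transcripts and 2 near copies of UQCRH and ATP5MG. The symbol rule does not separate these from subunits, so they were kept as members but left out of every summary over subunits.

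Jurkat is an established human T cell leukaemia line, and J-LatA2 is a Jurkat clone in whose genome an HIV-derived construct sits, little expressed until the cells are stimulated. Both lines were cultured for 24 h with DMSO alone at 0.1% v/v as vehicle, with SAHA at 1 uM (also called vorinostat, which inhibits histone deacetylases) or with PMA at 1 ug/mL (a phorbol ester, which turns on protein kinase C signalling), and live single cells were then sorted into 5 plates in 2 experimental batches. Of 480 wells, 410 were kept: J-LatA2 kept 94 of 96 DMSO wells, 135 of 201 SAHA wells and 79 of 81 PMA wells, and Jurkat all of its 30, 36 and 36 wells in the same order. Each J-LatA2 value comes from 1 clone, and whether the batches were separate cultures is not stated. Summing the counts of these wells over each batch of a group gave 2 sums each for J-LatA2 with DMSO, J-LatA2 with SAHA and Jurkat with DMSO, and 1 sum each, from the second batch, for the other 3 groups. The sums held between 4682181 and 36603816 counts. All 14 T cell marker genes examined had counts, and together they reached 966 to 14783 CPM (counts per 1000000 counts) per sum. Not all were high. CD7 was at 3.05 CPM or less in every sum, and CD5 was at 0 in J-LatA2 with DMSO in the second batch. The marker lists of monocytes, erythroid cells, epithelium and fibroblasts together reached no more than 8.48 CPM each in any sum. Of 5 B cell markers 4 were at 0 in every sum, while CD79A brought that list to 88.9 CPM at most. As a check of the labels, the viral construct stood at 5821 CPM or more in the 3 J-LatA2 sums with SAHA or PMA and at 0.229 CPM or less in the other 6 sums.

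Oxidative phosphorylation couples the oxidation of nutrients to the making of ATP. Complexes I and II feed electrons into the inner mitochondrial membrane, complexes III and IV pass them to oxygen while protons are pumped, and complex V, the ATP synthase, uses the return of those protons. Complexes I, III, IV and V are built from proteins of both genomes, whereas complex II is wholly nuclear encoded, so the 2 sets of transcripts are made by different RNA polymerases in different compartments. The mitochondrial genes are transcribed as long precursors that are cut into separate RNAs. In T cells the pathway is known for its part in activation and proliferation.

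The promoters of 3 nuclear members that passed the test with SAHA in J-LatA2 are shown, chosen after the motif search as examples with and without the letters searched: COX6A1 and ATP5PD, which rose, hold them, and NDUFC1, which fell, does not. Of the other genes that rose and had a window, NDUFB3 and ATP5MG hold none. Of the other genes that fell and had a window, NDUFS6 holds the NRF1 letters and NDUFS3 the ETS letters given below. NDUFB2, NDUFA9 and NDUFV2, which also fell, hold none. The stretches shown are RefSeq windows on GRCh38.p14, ending at the base before an annotated start, and are written 5′ to 3′ on the gene's strand. The COX6A1 stretch is chr12:120437863-120438112 (plus strand), that of ATP5PD chr17:75046970-75047169 (minus strand) and that of NDUFC1 chr4:139302552-139302751 (minus strand, the outermost of 4 annotated starts). Capitals mark the letters GCATGCGC, a core of sites of nuclear respiratory factor 1 (NRF1), or CCGGAAG, a core of ETS family sites such as those of GABPA, on either strand.
COX6A1: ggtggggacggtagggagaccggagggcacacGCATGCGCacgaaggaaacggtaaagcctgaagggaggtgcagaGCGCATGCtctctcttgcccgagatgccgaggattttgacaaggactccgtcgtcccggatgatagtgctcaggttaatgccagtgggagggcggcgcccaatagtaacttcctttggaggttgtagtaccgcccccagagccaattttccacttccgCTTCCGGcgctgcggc
ATP5PD: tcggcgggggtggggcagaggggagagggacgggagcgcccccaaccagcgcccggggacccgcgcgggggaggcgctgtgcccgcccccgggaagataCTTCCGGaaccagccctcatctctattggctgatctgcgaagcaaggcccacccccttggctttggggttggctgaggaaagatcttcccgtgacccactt
NDUFC1: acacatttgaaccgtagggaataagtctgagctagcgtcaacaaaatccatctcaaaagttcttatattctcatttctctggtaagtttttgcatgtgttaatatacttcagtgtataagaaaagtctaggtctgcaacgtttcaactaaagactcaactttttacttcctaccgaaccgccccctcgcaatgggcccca

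Of the 112 members, 78 had a promoter in the RefSeq table, and 68 nuclear subunits had 80 windows of 250 bases before a start. The NRF1 core was present in 14 of these 80 windows (17.5%), against 2.63% of all 35116 windows. The ETS core was present in 19 (23.8%), against 8.52% of all. The letters AAGATGGC, a core of YY1 sites, were present in 2 (2.5%), against 1.36%. Both strands were searched, and each motif was counted on its own, so matches of different motifs may overlap at their ends. Among the genes that rose with SAHA in J-LatA2, the NRF1 core was in 1 of 4 windows and the ETS core in 2 of 4. Among those that fell, each was in 1 of 9 windows, from 6 genes, with 4 of the windows from NDUFC1. These are descriptions of letters, on few genes, with no test. CYC1 and COX6C are among the members without an entry in the table.

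Levels were first compared between genes per kilobase of transcript (the median length of the gene's protein coding transcripts in GENCODE 29), as means over the 9 sums of TMM-normalised CPM. MT-CO1, the catalytic subunit of complex IV, was highest at 9958 CPM per kilobase. MT-CYB, the cytochrome b of complex III, followed at 7630, then MT-CO2 at 5572, MT-CO3 at 4414 and MT-ATP6, a membrane subunit of complex V, at 3878. The lowest mitochondrial genes were MT-ND3 at 188, MT-ND6 at 214 and MT-ATP8 at 253 CPM per kilobase. MT-ATP8 (M:8366-8572) and MT-ATP6 (M:8527-9207) overlap on the mitochondrial DNA, as do MT-ND4L (M:10470-10766) and MT-ND4 (M:10760-12137), so their counts may have been split between them. MT-ND6 (M:14149-14673) lies on the other strand and is the exception among mitochondrial messengers in lacking a stable poly(A) tail, while the cDNA was primed with poly(T). No source used here says whether strand was used in counting.

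Among nuclear members, the catalytic beta subunit of the ATP synthase, ATP5F1B, was highest at 2114 CPM per kilobase, followed by ATP5MC3, one of the genes of the c ring, at 1235 and the alpha subunit ATP5F1A at 1038. In the other complexes, the nuclear genes with the most counts stood at 387 (NDUFV2) and 234 (NDUFV1) CPM per kilobase in complex I, 335 (SDHB) and 157 (SDHA) in complex II, 404 (UQCRC1) and 371 (UQCRC2) in complex III, and 633 (COX4I1) and 202 (NDUFA4) in complex IV.

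The tissue-restricted isoforms were at or near 0. COX4I2, the lung and hypoxia form of subunit 4, COX6A2 and COX7A1, the heart and muscle forms, and COX7B2 had no count in any of the 410 cells. At a floor of 3 counts this allows at most between 0.082 and 0.641 CPM per sum, for counting error only. Their general counterparts COX4I1, COX6A1, COX7A2 and COX7B had means of 633, 713, 750 and 322 CPM per kilobase. COX6B2, the testis form of subunit 6B, had 89 counts in 8 cells, 3 J-LatA2 and 5 Jurkat cells, all with SAHA. It reached 1.88 CPM in J-LatA2 and 1.23 CPM in Jurkat with SAHA in the second batch and was at 0 in the other 7 sums. Over all sums its mean was 0.208 CPM per kilobase, against 403 for COX6B1, the general form. NDUFA4L2, a hypoxia-related relative of NDUFA4, stood at 3.64 and 4.89 CPM in J-LatA2 with DMSO and at 0.511 and 1.14 CPM with SAHA, which did not pass the test (log2 change -2.39 ± 1.66 SE, edgeR quasi-likelihood adjusted p = 0.489). COX8C, ATP5MGL and UQCRHL had 22, 4 and 27 counts in all. COX4I2, COX6A2, COX7A1, COX7B2 and ATP5MGL did not pass the filter on low counts, which left 107 members, 13 mitochondrial and 94 nuclear, of which 81 were subunits.

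The 13 mitochondrial genes took a larger share of all counts with SAHA in both lines. Their share was 3.62% and 3.87% in the J-LatA2 sums with DMSO, 5.45% and 5.21% with SAHA and 4.09% with PMA. In Jurkat it was 3.47% and 3.36% with DMSO, 4.69% with SAHA and 3.73% with PMA. The SAHA sums lay above all DMSO and PMA sums of both lines. Between plates, where each treated group was set against DMSO cells of its own plate, the share was higher with SAHA on 5 of 5 plates in J-LatA2 (1.32 to 1.58 times) and on 3 of 3 in Jurkat (1.29 to 1.43 times). With PMA the ratio was 1.01 to 1.14 on 3 plates in J-LatA2 and 1.02 to 1.17 in Jurkat.

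The 85 nuclear subunits and isoforms moved less as a sum. Their share was 2.57% and 2.55% in J-LatA2 with DMSO, 2.62% and 2.9% with SAHA and 2.44% with PMA. In Jurkat it was 2.57% and 2.7% with DMSO, 2.92% with SAHA and 2.63% with PMA. On matched plates SAHA gave 1.01 to 1.22 times the DMSO share in J-LatA2 and 1.03 to 1.09 times in Jurkat, and PMA 0.918 to 1.03 and 0.89 to 0.996 times. The ratio of mitochondrial to nuclear counts was thus 1.41 and 1.52 in J-LatA2 with DMSO, 2.08 and 1.79 with SAHA and 1.68 with PMA, and 1.35, 1.24, 1.61 and 1.42 in Jurkat with DMSO in either batch, SAHA and PMA. It was higher with SAHA on 5 of 5 plates in J-LatA2 (1.15 to 1.53 times) and 3 of 3 in Jurkat (1.21 to 1.34 times). All of these are shares of the RNA counted, so a higher share and less of the other RNA cannot be told apart.

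**Figure D1:**
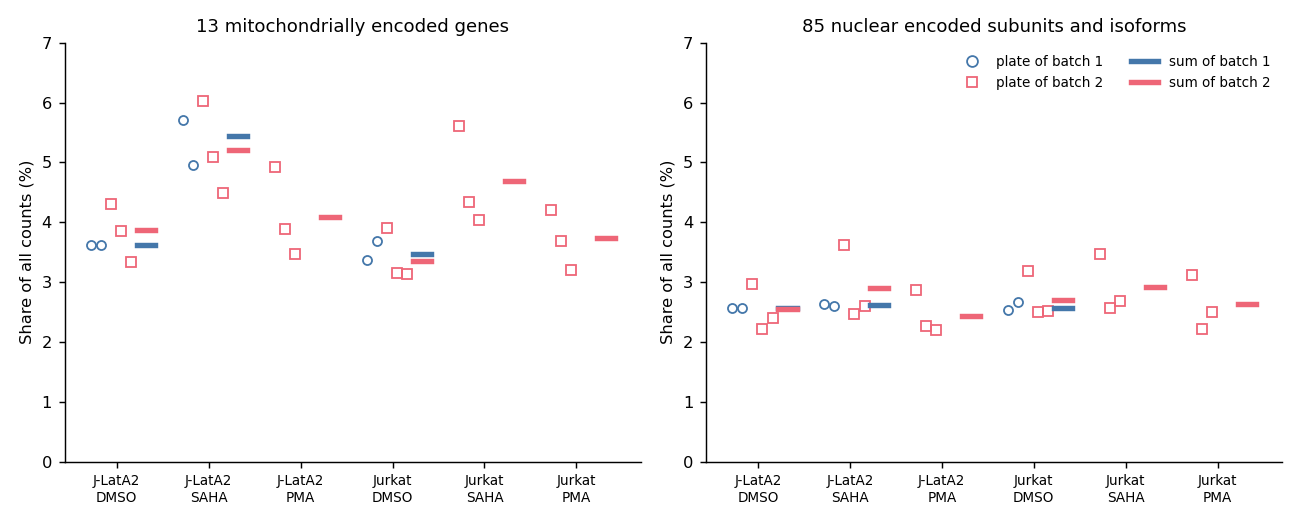
Share of all counts (%) taken by the 13 mitochondrially encoded genes (left) and the 85 nuclear encoded subunits and isoforms (right) in the 6 groups. Open symbols are the sums of 1 plate and bars the sums of 1 batch; the SAHA groups are highest on the left (4.69% to 5.45%), while on the right the batch sums span 2.44% to 2.92%.

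Plate P2769 stood apart, with the highest mitochondrial and nuclear shares in all 6 groups. On it the nuclear share was 2.86% to 3.63%, against 2.2% to 2.69% on the other 4 plates. Without that plate, 17 calls of members over all comparisons stayed the same and 6 were weaker. The losses with PMA and for PMA against SAHA are given below. The other weaker calls were calls with SAHA, which are not marked singly. Leaving that plate out was a choice made after the data were seen.

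Within each line, the median share per cell was highest with SAHA, followed by PMA and DMSO. The median mitochondrial share per cell was 3.59% and 3.66% in J-LatA2 with DMSO (59 and 35 cells of the first and second batch), 4.91% and 4.94% with SAHA (67 and 68 cells) and 3.96% with PMA (79 cells). In Jurkat the medians were 3.61% and 3.2% with DMSO (12 and 18 cells), 4.51% with SAHA (36 cells) and 3.67% with PMA (36 cells). These are shares of each cell's total, while log values of single genes averaged over cells gave a median mitochondrial change of -0.03 with SAHA in J-LatA2, as described with the limits of the gene tests. The lower quartile with SAHA, 3.82% and 4.19% in J-LatA2 and 4.07% in Jurkat, lay above the DMSO median of its own line in each case. The 3 kept J-LatA2 cells above 12%, all with SAHA in the first batch, had 23% to 41.5%, with 641 to 1013 genes detected against a median of 4529 in that sum. With a stricter filter on wells, the highest value there was 8.67% and the median 5.06%. The 53 of 120 wells left out of that sum had a median of 3.69% and values up to 72.1%.

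**Figure D2:**
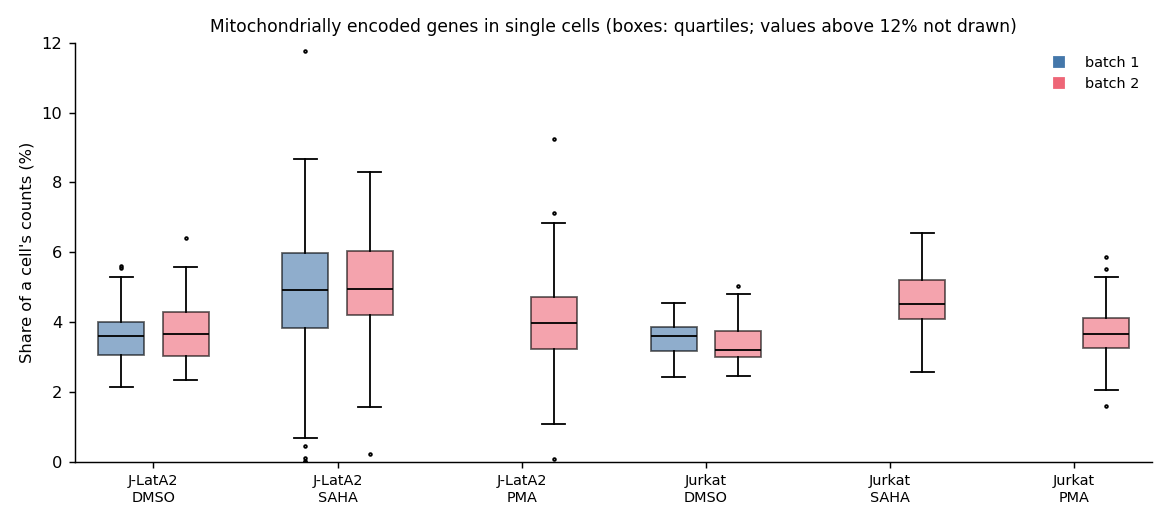
Share of each kept cell's counts taken by the 13 mitochondrially encoded genes (%), by group, with batch 1 in blue and batch 2 in red. Boxes give the quartiles with the median as a line, whiskers reach 1.5 interquartile ranges, dots are cells beyond them, and 3 J-LatA2 cells with SAHA above 12% are not drawn; the SAHA medians (4.91%, 4.94% and 4.51%) lie above all other medians.

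Across cells of 1 group and batch, the rank correlation between the mitochondrial and the nuclear share ran from -0.196 (12 Jurkat cells with DMSO) to 0.599 (36 Jurkat cells with SAHA). It was 0.0212 and 0.316 in the J-LatA2 sums with SAHA. That of the mitochondrial share with a cell's total ran from -0.154 to 0.357. The points of 1 group share plates and a common denominator, and these values are descriptions only.

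Single genes were tested on the sums, with log2 changes, their SE and Benjamini-Hochberg adjusted p-values (edgeR quasi-likelihood test, over 13560 genes, called under 0.05). With SAHA in J-LatA2, 8 members rose and 7 fell. Over all genes tested 3.53% rose and 4.9% fell, so the members' 7.48% that rose lay above the background and the 6.54% that fell near it. Of the mitochondrial genes 3 of 13 rose and none fell, with a median log2 change of 0.35. Of the 81 nuclear subunits 5 rose and 7 fell, with a median of 0.11, next to 0.12 for all genes. Each of the 15 changed in its direction on 5 of 5 plates, but these plates make up the sums tested and give no separate support.

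The mitochondrial genes that rose in J-LatA2 belong to complexes III and IV. MT-CYB (M:14747-15887) stood at 7281 and 8153 CPM with DMSO, 12152 and 11712 CPM with SAHA and 8874 CPM with PMA. The SAHA sums did not overlap those of DMSO or PMA (log2 change 0.63 ± 0.11 SE, adjusted p = 0.00746). For called genes, here and below, such separation from DMSO follows in large part from the call on the same sums. It is a description and no further support. MT-CO1 (M:5904-7445) was at 12575 and 15111 CPM with DMSO, 18307 and 21511 CPM with SAHA and 16817 CPM with PMA (0.53 ± 0.09, adjusted p = 0.00791). MT-CO2 (M:7586-8269), which takes the electrons from cytochrome c, was at 2838 and 3529 CPM with DMSO and 3741 and 5104 CPM with SAHA, so the groups did not overlap here either (0.47 ± 0.12, adjusted p = 0.0349). MT-CO3, at 0.35 ± 0.11, did not pass (adjusted p = 0.0846).

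The 7 mitochondrial complex I genes were less uniform in J-LatA2. MT-ND4L had a log2 change of 0.47 ± 0.14, MT-ND4 0.38 ± 0.11, MT-ND6 0.3 ± 0.21 and MT-ND5 0.22 ± 0.13. MT-ND3, MT-ND1 and MT-ND2 had 0.11 ± 0.29, 0.05 ± 0.15 and -0.05 ± 0.14. None passed the test, the lowest adjusted p being 0.0688 for MT-ND4. The complex V genes MT-ATP6 and MT-ATP8 had 0.23 ± 0.12 and 0.36 ± 0.3, and did not pass either.

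In Jurkat with SAHA 3 mitochondrial genes rose as well, and all 13 had a log2 change above 0, with a median of 0.53. MT-CYB was at 6360 and 5829 CPM with DMSO and 10690 CPM with SAHA (0.81 ± 0.14, adjusted p = 0.0121). MT-ND4, a proton-pumping core subunit of complex I, was at 3975 and 2762 CPM with DMSO and 4668 CPM with SAHA (0.71 ± 0.14, adjusted p = 0.0239), with DMSO sums that differed widely between batches. MT-CO3 was at 2223 and 2840 CPM with DMSO and 4343 CPM with SAHA (0.62 ± 0.14, adjusted p = 0.0367). MT-CO1 and MT-CO2, which rose in J-LatA2, had 0.22 ± 0.12 and 0.36 ± 0.15 and did not pass in Jurkat.

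A test of the difference between the lines called none of the 107 members (0.00737% of all genes were called, which is 1 gene). By an unadjusted p under 0.05 it took 1, MT-ND2 (-0.59 ± 0.23, unadjusted p = 0.0313, adjusted p = 1), and DESeq2 called 0 members. With plate as a block it also called 0. The change was smaller in J-LatA2 for 11 of 13 mitochondrial genes. The difference between lines in the mitochondrial minus nuclear median was -0.23, from the fit that also held the first batch. It was -0.51, -0.61 and -0.27 on the 3 plates that held both lines with SAHA and DMSO (SD 0.17, n = 3 plates). All 3 lie below the fitted value, so the SD is not a spread around it. These are descriptions with no test, and no single gene is shown to differ between the lines.

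**Figure D3:**
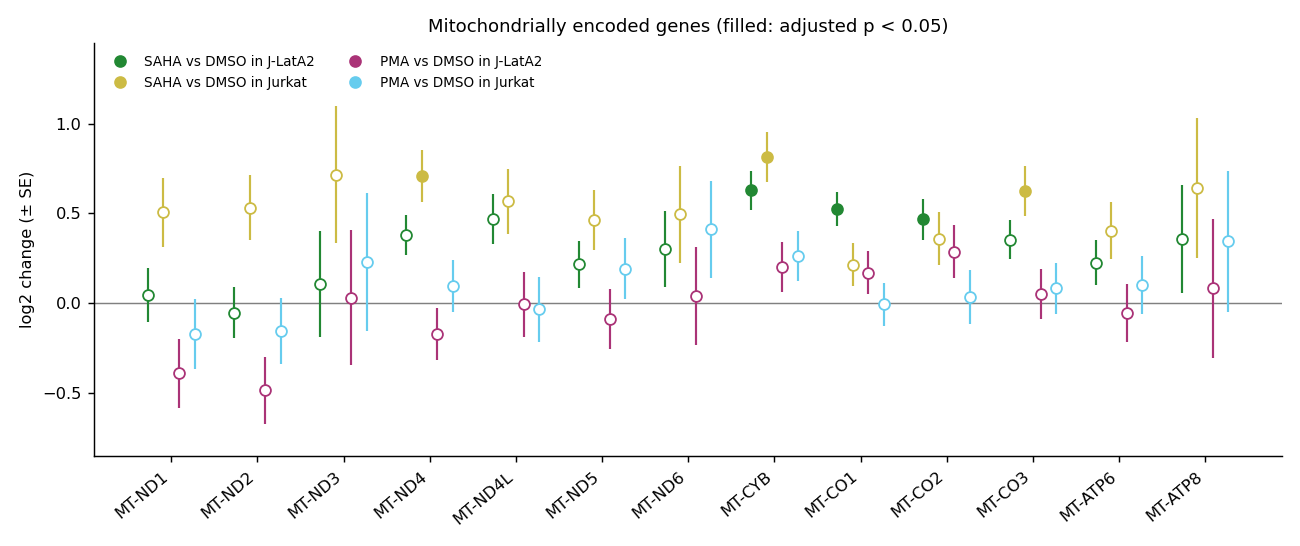
Log2 change (± SE) of each of the 13 mitochondrially encoded genes in 4 comparisons with DMSO, grouped by complex from left (I) to right (V). Filled points passed the test (MT-CYB, MT-CO1 and MT-CO2 with SAHA in J-LatA2; MT-ND4, MT-CYB and MT-CO3 with SAHA in Jurkat); with PMA the changes lie on both sides of 0 and none passed.

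The nuclear members that rose with SAHA belong to complexes I, IV and V. ATP5PD, subunit d of the peripheral stalk that holds the ATP synthase still (chr17:75038863-75046985), was at 171 and 217 CPM in J-LatA2 with DMSO and 323 and 498 CPM with SAHA, and at 226 CPM with PMA. In Jurkat it was at 156 and 197 CPM with DMSO, 420 CPM with SAHA and 202 CPM with PMA. The SAHA sums of both lines stood above every other sum (1.06 ± 0.17, adjusted p = 0.00521 in J-LatA2; 1.04 ± 0.21, adjusted p = 0.0259 in Jurkat).

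COX6C, an accessory subunit of complex IV, was also highest with SAHA. It was at 278 and 297 CPM in J-LatA2 with DMSO, 472 and 694 CPM with SAHA and 369 CPM with PMA, and in Jurkat at 258 and 324, 695 and 395 CPM. It rose by 0.99 ± 0.17 in J-LatA2 (adjusted p = 0.00607) and by 1.1 ± 0.21 in Jurkat (adjusted p = 0.0185). Its level on plate P2769 with SAHA, 1242 CPM in J-LatA2 and 1055 CPM in Jurkat, was above the 452 to 512 CPM of the other plates with SAHA, and DMSO was also highest on that plate (449 and 529 CPM).

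In J-LatA2 3 more nuclear subunits rose. NDUFB3, an accessory subunit of the membrane arm of complex I, was at 162 and 221 CPM with DMSO and 257 and 493 CPM with SAHA (0.93 ± 0.22, adjusted p = 0.0267). ATP5MG, subunit g of the membrane part of the ATP synthase, was at 247 and 339 CPM with DMSO and 392 and 609 CPM with SAHA (0.76 ± 0.16, adjusted p = 0.0164). COX6A1, the general form of subunit 6A, was at 310 and 327 CPM with DMSO and 429 and 601 CPM with SAHA (0.67 ± 0.16, adjusted p = 0.0314). For each of the 3, both SAHA sums lay above both DMSO sums, which are the sums that gave the call. In Jurkat the same genes had 0.57 ± 0.28, 0.55 ± 0.2 and 0.64 ± 0.21 and did not pass.

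CYC1 was the member that fell with the lowest adjusted p. It encodes cytochrome c1, the redox subunit of complex III that hands electrons to cytochrome c. Its level was 454 and 484 CPM in J-LatA2 with DMSO, 221 and 224 CPM with SAHA and 238 CPM with PMA. In Jurkat it was 442 and 489 CPM with DMSO, 231 CPM with SAHA and 273 CPM with PMA. Every treated sum was below every untreated one, with a gap from 273 to 442 CPM. The log2 change with SAHA was -1.08 ± 0.16 in J-LatA2 (adjusted p = 0.00305) and -1.05 ± 0.21 in Jurkat (adjusted p = 0.0215). CYC1 and MT-CYB, which sit in the same complex, thus changed in opposite directions, and the other electron-carrying nuclear subunit of complex III, the Rieske protein UQCRFS1, had -0.56 ± 0.17 in J-LatA2, which did not pass (adjusted p = 0.0834).

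The other 6 nuclear falls in J-LatA2 were all subunits of complex I, 6 of its 37 nuclear subunits, against 4.9% of all genes. In the same complex 1 subunit, NDUFB3, rose, and 18 of the 37 had a change above 0 and 19 below. NDUFC1, of the membrane arm, was at 142 and 176 CPM with DMSO and 53.7 and 90.8 CPM with SAHA (-1.17 ± 0.23, adjusted p = 0.0122). NDUFB2, also of the membrane arm, was at 150 and 172 CPM with DMSO and 75 and 98 CPM with SAHA (-0.9 ± 0.21, adjusted p = 0.0265). NDUFS3, a core subunit of the arm that reaches into the matrix, was at 246 and 244 CPM with DMSO and 115 and 150 CPM with SAHA (-0.89 ± 0.2, adjusted p = 0.0242). For each of these, the SAHA sums lay below both DMSO sums, again the sums that gave the call.

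NDUFS6, NDUFA9 and NDUFV2, the last a core subunit that binds an iron-sulfur cluster, fell by 0.87, 0.74 and 0.67 on the log2 scale, with adjusted p-values of 0.0292, 0.0303 and 0.0273. In Jurkat all 6 had negative changes, from -0.97 for NDUFC1 to -0.42 for NDUFV2, and none passed. NDUFV1, the partner of NDUFV2 at the site where NADH is oxidised, had 0.63 ± 0.2 in J-LatA2 (adjusted p = 0.0842). Accessory subunits near the same modules also had changes of either sign, such as NDUFA2 at 0.74 ± 0.21 and NDUFA6 at -0.64 ± 0.2, neither of which passed.

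**Figure D4:**
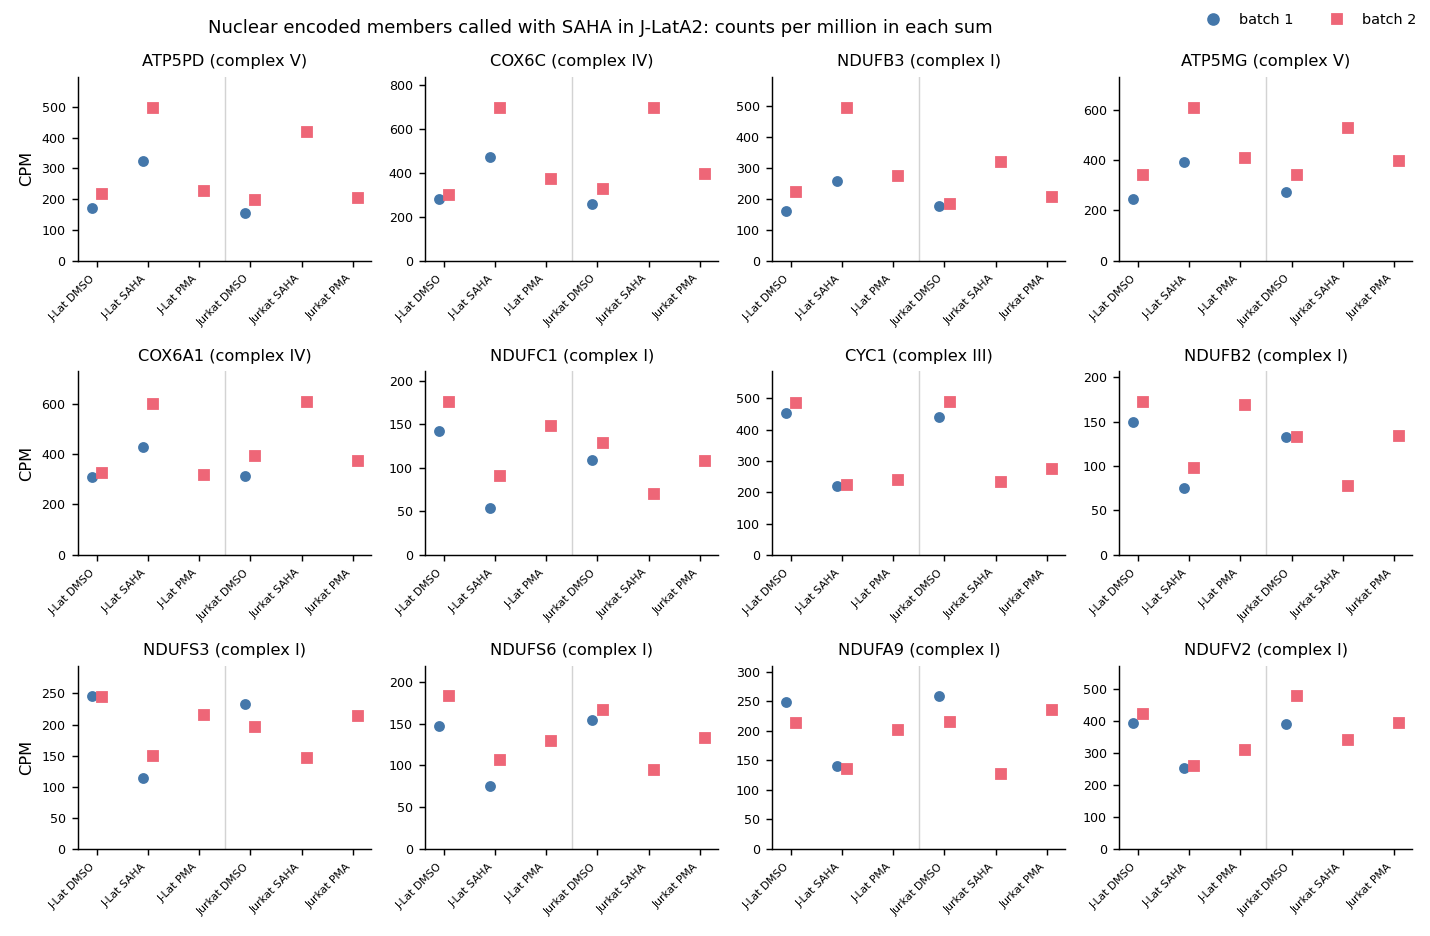
TMM-normalised CPM of the 12 nuclear encoded members that passed the test with SAHA in J-LatA2, in each of the 9 sums (blue circles batch 1, red squares batch 2), with each vertical axis from 0. The first 5 panels rose and the last 7 fell; CYC1 is lower in every SAHA and PMA sum (221 to 273 CPM) than in every DMSO sum (442 to 489 CPM).

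All 15 members called with SAHA in J-LatA2 had the same sign in Jurkat, and 4 of them were called in both lines: MT-CYB, ATP5PD, COX6C and CYC1. In Jurkat 5 members rose and 1 fell, 4.67% and 0.935% of those tested, against 1.84% and 2.37% of all genes. Over the 107 members 90 had the same sign in both lines, with a Spearman's rho of 0.776 across genes, which are not independent replicates. The matching values over all genes are not given, so this likeness is not shown to be particular to the members. The 2 comparisons share the batch term but no sums.

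By complex, the median log2 change of the nuclear subunits with SAHA in J-LatA2 was -0.02 for complex I (37 tested), 0.07 for complex II (4), 0.07 for complex III (9), 0.2 for complex IV (14) and 0.17 for complex V (17). The corresponding mitochondrial medians were 0.22 for complex I, 0.63 for MT-CYB, 0.47 for complex IV and 0.29 for complex V. In Jurkat the nuclear medians were -0.13, -0.02, -0.03, 0.27 and 0.13, and the mitochondrial ones 0.53 for complex I, 0.81 for MT-CYB, 0.36 for complex IV and 0.52 for complex V. The nuclear complex I medians were below those of all genes (0.12 in J-LatA2 and 0.11 in Jurkat), and those of complex IV above them.

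Over all complexes the mitochondrial median exceeded the nuclear one by 0.25 in J-LatA2 (SD 0.15 over the 3 plates of the second batch) and by 0.46 in Jurkat (SD 0.05, n = 3 plates). On single plates the J-LatA2 difference was 0.51 and 0.31 in the first batch and -0.04, 0.07 and 0.26 in the second, where P2769 gave the lowest. In Jurkat it was 0.49, 0.54 and 0.44 on the 3 plates of the second batch. In J-LatA2 the difference was therefore larger in the first batch, where the SAHA wells had lower totals (a median of 284001 against 555658 counts); the part of depth in it was not tested. By complex it was 0.24, 0.56, 0.27 and 0.12 for complexes I, III, IV and V in J-LatA2, and 0.66, 0.85, 0.09 and 0.4 in Jurkat. On single J-LatA2 plates complex I gave 0.65 and 0.41 in the first batch and -0.09, -0.2 and 0.17 in the second, and complex V was below 0 on 3 of 5 plates. Complex III ranged from 0.33 to 0.99 over the 5 plates. In Jurkat the 3 plates gave 0.62 to 0.83 for complex I, 0.79 to 0.85 for complex III, 0.03 to 0.3 for complex IV and 0.27 to 0.52 for complex V. The values of complex IV include isoforms near 0 counts in both lines. Over the 11 nuclear genes with a mean of at least 5 CPM the nuclear median was 0.19 instead of 0.27 in Jurkat. In J-LatA2 it was 0.26 instead of 0.2. These isoforms thus lower the complex IV difference in Jurkat and raise it in J-LatA2.

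**Figure D5:**
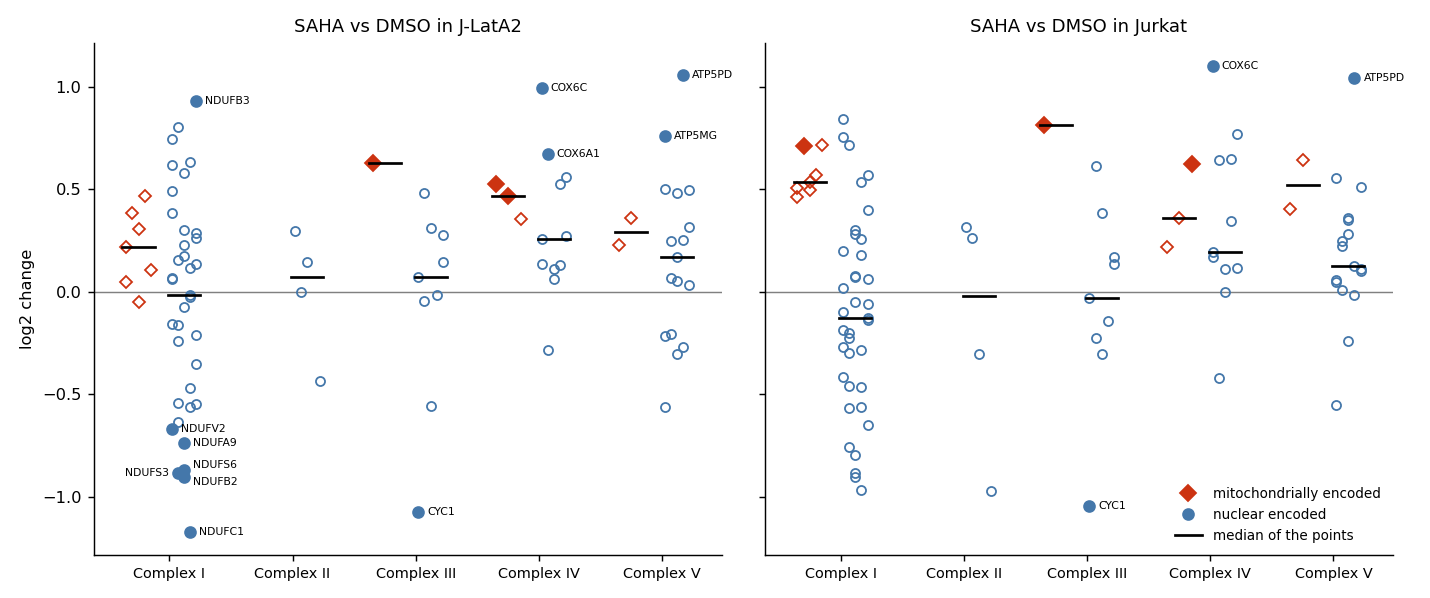
Log2 change with SAHA of each mitochondrially encoded (red diamonds) and nuclear encoded (blue circles) subunit with a mean of at least 5 CPM, by complex, in J-LatA2 (left) and Jurkat (right). Filled symbols passed the test, nuclear ones are named, and black lines are medians of the points drawn; the nuclear falls in J-LatA2 are CYC1 and 6 subunits of complex I, and the diamonds' medians lie above those of the circles in each complex that has both.

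No isoform set apart from COX6A1, described above, held a call with SAHA in J-LatA2, and differences between isoforms were not tested. The genes ATP5MC1, ATP5MC2 and ATP5MC3 encode the same mature c subunit of the ATP synthase with different targeting sequences. ATP5MC3 was at 789 and 897 CPM with DMSO and 1019 and 1381 CPM with SAHA, while ATP5MC1 was at 311 and 317 CPM with DMSO and 180 and 247 CPM with SAHA. Their log2 changes were 0.5 ± 0.13 (adjusted p = 0.0522) and -0.56 ± 0.18 (adjusted p = 0.0954), and that of ATP5MC2 -0.3 ± 0.16 (adjusted p = 0.336). None passed, although the DMSO and SAHA sums of the first 2 did not overlap. COX4I1 and COX7A2 had 0.13 ± 0.15 and 0.11 ± 0.19, COX7B 0.27 ± 0.18, COX6B1 0.53 ± 0.2, NDUFA4 0.26 ± 0.18 and the inhibitor ATP5IF1 0.15 ± 0.19. COX7A2L, which helps join complexes into supercomplexes, had 0.18 ± 0.2. None of these passed.

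The 8 complex I assembly factors among the members held no call. In J-LatA2 with SAHA 7 of the 8 had a change below 0, led by NDUFAF8 at -1.31 ± 0.39 (adjusted p = 0.0732) and NDUFAF6 at -0.96 ± 0.3 (adjusted p = 0.0825). NDUFC2 and its read-through NDUFC2-KCTD14, and ATP5MF and ATP5MF-PTCD1, share sequence, so how reads were divided between them is uncertain, as it is between UQCRH and UQCRHL.

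The calls rest on few sums. With plates as units and plate as a block, which pairs treated and DMSO cells, 36 members passed with SAHA in J-LatA2, all 15 among them. In Jurkat 30 passed, all 6 among them, but plates of 1 batch may come from 1 culture. For this and every other alternative fit, here and below, the share of all genes called is not given. Their counts of members therefore describe the fits and are no result about the members. Without the J-LatA2 DMSO sum of the first or the second batch, 3 and 2 of the 15 calls remained, and without the J-LatA2 SAHA sum of the first or second batch 9 and 7 remained. CYC1 passed in all 6 fits that left out 1 sum, and MT-CYB, COX6C and ATP5PD in 5 of 6, while NDUFB2, NDUFA9, NDUFS6 and NDUFV2 passed in 2 of 6. In Jurkat no member passed without the DMSO sum of the second batch. When the log values of single cells were averaged, so that every cell had equal weight, limma called 0 members in each comparison. With SAHA in J-LatA2 the median over all tested genes then shifted from 0.12 to -0.12, that of the mitochondrial genes from 0.35 to -0.03 and that of the nuclear subunits from 0.11 to -0.6. The direction of MT-CYB, MT-CO2 and COX6A1 in J-LatA2 turned there (-0.03, -0.03 and -0.07), while the mitochondrial median stayed above the nuclear one.

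With PMA 1 member was called in J-LatA2, CYC1, which fell (-1.02 ± 0.21, adjusted p = 0.0364). Over all genes 1.18% rose and 0.804% fell with PMA, and 0% and 0.935% of members did. The call was lost without either J-LatA2 DMSO sum and without plate P2769, where no member passed, while 5 passed with plate as a block. In Jurkat CYC1 had -0.81 ± 0.2 (adjusted p = 0.0818) and no member passed, against 2.27% of all genes called in either direction. There 5 members had an unadjusted p under 0.05, DESeq2 called 1, and the fit on plates with plate as a block called 6. These counts too lack the shares of all genes and are no result about the members. The test of the difference between the lines in the PMA response called none of the 107 members (0.0221% of all genes, which is 3 genes; 0 members at an unadjusted p under 0.05 and 0 by DESeq2).

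The mitochondrial genes had median log2 changes with PMA of 0.03 in J-LatA2 and 0.1 in Jurkat, and the nuclear subunits -0.1 and -0.08. MT-CYB had 0.2 ± 0.14 and 0.26 ± 0.14, MT-CO1 0.17 ± 0.12 and -0.01 ± 0.12, and MT-ND2 -0.48 ± 0.19 and -0.15 ± 0.18, none of which passed. The 4 complex II genes had medians of -0.39 and -0.41, with SDHA, the flavoprotein that oxidises succinate, at -0.47 ± 0.2 and -0.62 ± 0.2, also without passing. The mitochondrial median exceeded the nuclear one by 0.13 in J-LatA2 (SD 0.1, n = 3 plates) and 0.17 in Jurkat (SD 0.17), while the 3 J-LatA2 plates gave 0.0049, -0.16 and 0.02, all below that value, and a fit of the second batch alone gave -0.04.

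SAHA and PMA share their DMSO controls, so they were also compared directly in J-LatA2. ATP5PD was lower with PMA than with SAHA (226 against 323 and 498 CPM, -1.05 ± 0.22, adjusted p = 0.0321). It was the only member called in this fit, where 2.25% of all genes were higher and 1.37% lower with PMA. The call was lost without the J-LatA2 SAHA sum of the second batch and without plate P2769, and 2 to 6 members passed without other single sums and 26 with plate as a block. COX6C had -0.8 ± 0.22 (adjusted p = 0.0858) and MT-ND4 -0.55 ± 0.15 (adjusted p = 0.0818). All 13 mitochondrial genes were below 0, from -0.55 to -0.08, without passing. CYC1, at 0.06 ± 0.2, did not pass (adjusted p = 0.975).

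Without an agent, no member passed the test between J-LatA2 and Jurkat, against 0.398% of all genes called. By an unadjusted p under 0.05 there were 8 of the 107 members tested, DESeq2 called 2, and the fit on plates with plate as a block called 5. The shares of all genes at these looser criteria are not given, so the counts are no result about the members. The lowest adjusted p, 0.0902, was that of UQCRC2, a core protein of complex III, at 423 and 361 CPM in J-LatA2 and 661 and 651 CPM in Jurkat (-0.74 ± 0.15, lower on 5 of 5 plates). MT-CO3 and MT-CYB had 0.38 ± 0.11 and 0.34 ± 0.11, also on 5 of 5 plates, with adjusted p-values of 0.248 and 0.31. The mitochondrial and nuclear medians were 0.04 and 0.03, and on single plates their difference ran from -0.14 to 0.29. As summed counts, the ratio of mitochondrial to nuclear was higher in J-LatA2 than in Jurkat on 5 of 5 plates with DMSO (1.02 to 1.38 times). It was also higher on 3 of 3 plates with SAHA (1.03 to 1.22 times) and with PMA (1.03 to 1.28 times). These ratios were not tested.

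Other genes of the mitochondrion were taken from lists by function. With SAHA in J-LatA2, 22 of 79 proteins of the mitochondrial ribosome, which translates the 13 mitochondrial messengers, fell and 1 rose, with a list median of -0.48 against 0.12 for all genes, of which 4.9% fell and 3.53% rose. These shares stand beside each list count of this comparison. MRPS2 (-1.4 ± 0.26, adjusted p = 0.00952) and MRPL46 (-1.27 ± 0.25, adjusted p = 0.0141) fell, and MRPS31 rose (1.14 ± 0.21, adjusted p = 0.00883). Of 33 genes of protein import and mitochondrial proteases 10 fell and none rose (median -0.61). Among these were TIMM44, which tethers the import motor (-2.61 ± 0.35, adjusted p = 0.00198), and the chaperonin subunit HSPE1 (-1.51 ± 0.17, adjusted p = 0.000908). Of 87 proteins of the cytoplasmic ribosome tested 7 fell and 1 rose (median -0.06).

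Among genes that make and process mitochondrial RNA some fell and none rose, where 4.9% of all genes fell. Of 16 genes of mitochondrial DNA transcription and replication 2 fell and none rose, TOP1MT, the mitochondrial topoisomerase (-1.74 ± 0.41, adjusted p = 0.0283), and SSBP1, which binds single-stranded DNA (-0.65 ± 0.17, adjusted p = 0.0442). Of 22 genes of mitochondrial RNA processing and decay 4 fell and none rose (median -0.52), among them FASTKD2 (-0.98 ± 0.21, adjusted p = 0.0192) and the methyltransferase MRM3 (-1.14 ± 0.3, adjusted p = 0.0467). With 3.53% of all genes rising, lists of this size may hold no rise.

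Fuel supply held calls in both directions, as did all genes (3.53% rose and 4.9% fell), and several of the lists are near these shares. Of 14 tested carriers and pores 3 rose and 1 fell. The pyruvate carrier genes MPC1 (1.21 ± 0.21, adjusted p = 0.00821) and MPC2 (1.04 ± 0.23, adjusted p = 0.0214) rose, and the outer membrane channel VDAC1 fell (-1.37 ± 0.18, adjusted p = 0.00182). Of 17 genes of the citric acid cycle 1 rose, DLD (0.74 ± 0.15, adjusted p = 0.0138), and 2 fell, SUCLG2 (-1.62 ± 0.3, adjusted p = 0.00956) and IDH2 (-0.74 ± 0.14, adjusted p = 0.0115). Among 11 tested regulators of respiratory genes HIF1A rose (0.79 ± 0.19, adjusted p = 0.0278) and MYC fell (-3.14 ± 0.43, adjusted p = 0.00222). Of 41 assembly factors outside the symbol rule 1 rose, TIMMDC1 (0.61 ± 0.16, adjusted p = 0.0482). Of 13 genes of coenzyme Q synthesis and cytochrome c none was called. There CYCS, cytochrome c itself, had -0.18 ± 0.18 (adjusted p = 0.671).

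In Jurkat with SAHA 5 of 79 mitochondrial ribosomal proteins fell and none rose, among them MRPS2 (-1.63 ± 0.35, adjusted p = 0.031) and MRPS34 (-1.35 ± 0.29, adjusted p = 0.0316), and 4 of 33 import genes fell, with HSPE1 at -1.59 ± 0.23 (adjusted p = 0.0066). Of all genes 2.37% fell and 1.84% rose there. With PMA no mitochondrial ribosomal protein was called in either line, while the list medians were -0.48 and -0.35. Of the import genes 3 fell in J-LatA2 and 4 in Jurkat, led by the chaperonin HSPD1 (-1.38 ± 0.17, adjusted p = 0.00378, and -1.48 ± 0.17, adjusted p = 0.00309). Of all genes 0.804% fell with PMA in J-LatA2, and 2.27% were called in either direction in Jurkat. MYC fell with PMA too (-4.6 ± 0.62, adjusted p = 0.00522 in J-LatA2, and -3.79 ± 0.59, adjusted p = 0.0104 in Jurkat). T cell markers moved with the treatments. Their summed level was 4945 to 5446 CPM in the DMSO sums, 966 to 1319 CPM in the SAHA sums and 13347 to 14783 CPM in the PMA sums, and 11 of 14 fell with SAHA and 6 of 14 rose with PMA in J-LatA2. Their part in the changes of the respiratory genes was not tested.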

How the data were processed

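Full-length cDNA of sorted single cells was made with poly(T) priming, template switching and 25 PCR cycles, per the labels' protocols, without molecular identifiers. The deposited values are the authors' expected counts for each gene in each well, with no scaling to library size. Named in the submitters' processing notes are alevin, Salmon 1.5.1 and the build GRCh38.p13, without their roles. The plates of either batch were inferred from the stated plate numbers and the plate names.

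Wells with a total of at least 1/10 of their plate's median and 500 genes were kept. Expected counts were summed per group and batch (9 sums) and rounded. edgeR 4.0.16 in R 4.3.3 gave TMM normalisation, filterByExpr and the two-sided quasi-likelihood F test with group and batch as terms (2 residual and 7.75 prior degrees of freedom). The replicate is the batch; p-values measure the spread between these sums, which may be technical, and groups with 1 sum were assumed to vary like the others. The SE is the log2 change divided by the root of F. Alternatives used DESeq2 1.42.0 and limma 3.58.1. The fit was tested on simulated data. Transcript lengths and coordinates are from GENCODE 29.

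Named genes were all mitochondrial members, the 2 nuclear members of highest CPM per complex, up to 4 called each way per comparison with at least 20 CPM, isoform sets, and up to 2 called each way (or the highest) per pathway list. Other members named were chosen after their values were seen. The members and lists were chosen with earlier results of these data known.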

Additional observations from a re-analysis of the deposited data

How the results depend on the processing

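The count of members called depended on the unit and the tool. Shares of all genes are given above for the main fit only. A higher count in another fit is therefore not shown to be particular to the members. With SAHA in J-LatA2, against 15, DESeq2 called 29, a fit with no batch term 7, plates as units with plate as a block 36, the second batch alone 30 and equal weight per cell (limma) 0. With SAHA in Jurkat, against 6, DESeq2 called 13, plates 30, the second batch alone 26 and limma 0. With PMA in J-LatA2, against 1, DESeq2 called 2, plates 5, the second batch alone 4, and no batch term, limma and leaving out plate P2769 each 0. With PMA in Jurkat, against 0, the first 3 of these gave 1, 6 and 4, and between the lines with DMSO, against 0, they gave 2, 5 and 4. For PMA against SAHA, against 1, they gave 8, 26 and 24, scaling to nuclear encoded genes gave 2, and no batch term, limma and leaving out plate P2769 each 0. Leaving out 1 sum gave 2 to 19 calls for SAHA and 0 to 1 for PMA in J-LatA2, 0 to 6 for SAHA and 0 to 1 for PMA in Jurkat, 1 to 6 for PMA against SAHA and 0 to 1 between the lines.

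The mitochondrial minus nuclear median with SAHA in J-LatA2 was 0.56 by limma and 0.073 to 0.38 without 1 sum. In Jurkat it was 0.29 with no batch term, 0.62 by limma and 0.38 to 0.52 without 1 sum. With PMA in J-LatA2 it was 0.026 with no batch term, -0.044 in the second batch alone and 0.00092 to 0.25 without 1 sum. For PMA against SAHA it was -0.38 by limma and -0.41 to -0.085 without 1 sum, and for the SAHA difference between lines -0.43 in the second batch alone and -0.46 to -0.059 without 1 sum. By limma COX6A1, MT-CO2 and MT-CYB turned to -0.068, -0.035 and -0.027 with SAHA in J-LatA2 (adjusted p = 0.986, 1 and 1). The cause of these shifts was not tested. Plates of 1 batch may come from 1 culture, so fits on plates may count more units than the batches give. The test without plate P2769 was added after seeing the data. The labels give no replicate numbers, and the pairing used is the plate, in the fits with plate as a block. Groups with 1 sum limit every PMA comparison and Jurkat with SAHA.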
